A study of Homo sapiens with 16 samples.

Results

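Tumours grown from human U87 cells in the brains of mice given exosomes with MYC siRNA 1 were compared with tumours of mice given exosomes with scramble siRNA 1, across all genes of the first of the 2 deposited expression tables. The members are 7 of the 16 libraries of the series: 3 libraries of the MYC siRNA 1 group, named Myc1, and 4 of the scramble group, named Scr1. U87 is an established human glioblastoma cell line, labelled WT for genotype, and the implanted cells carried a luciferase reporter. Nude mice, which lack mature T cells, were the hosts, so the tumours grew without a T cell response and with other mouse cells around them. From day 28 after implantation both groups received 1000000000 exosomes in 100 µl by retro-orbital injection on alternate days, and both kinds of exosome came from MSC, as the labels abbreviate the source. Each tumour was collected when its own mouse reached the conditions for euthanasia, so the number of doses may differ between libraries, and it is not given in the sources used here. Only RNA of integrity number 7.2 or above went to sequencing. The model is 1 cell line, with 1 siRNA per group and 1 mouse per library, and there was no untreated group among these libraries. The question put by the design is how tumour expression differed once MYC was targeted. The 9 libraries of the second experiment (MYC siRNA 2, Myc2, 5 libraries, against scramble siRNA 2, Scr2, 4 libraries) are used only to set the same genes beside independent mice.

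MYC is a transcription factor that pairs with MAX at E-box sites and drives ribosome production, nucleotide synthesis and cell growth. The MXD proteins, MXI1 and MNT compete with it for MAX. An siRNA is loaded into an Argonaute protein, of which AGO2 cleaves the matching messenger RNA, and exosomes are small secreted vesicles that can carry such RNAs. In glioblastoma, astrocyte-like, progenitor-like and mesenchymal-like expression states occur side by side, and complement, metallothionein and sterol genes are among those that vary with state and environment.

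The values were log2 CPM (read counts scaled to a common library size), further scaled so that every library has the same distribution, and levels below are CPM taken back from them. The spacing of the lowest values gave rough library sizes of 15.2 to 24.0 M reads (mega, 1e6), except 3.38 M in Scr1 replicate 3. The scaling to a common distribution changes that spacing, so these are not measured read totals. In Scr1 replicate 3, 8.81% of genes stood at its lowest value, a log2 CPM of -2.54. In the other libraries at most 1.49% stood at theirs, -4.91. Genes near the lowest value are therefore the least certain in that library. The leading principal component (31.3% of the variance) placed Scr1 replicate 4 at 61.5 and Myc1 replicate 3 at -44.7, with Scr1 replicate 3 at -36.5 among the Myc1 libraries. Of the markers of host cells, RBFOX3, NEFM and SYN1 of neurons, MBP of oligodendrocytes, ITGAM and FCER1G of myeloid cells, TIE1 and ERG of endothelium and PLIN1 of adipocytes were each under 1 CPM in every library. Summed over the list, endothelial markers stood at 11.1 to 26.0 CPM in Myc1 and 4.81 to 10.1 CPM in Scr1, adipocyte markers at 14.4 to 19.9 and 20.1 to 35.5 CPM, astrocyte markers at 351 to 481 and 175 to 416 CPM, and microglia and macrophage markers at 359 to 523 and 299 to 425 CPM. Oligodendrocyte markers summed to 191 to 220 and 178 to 224 CPM and pericyte markers to 291 to 429 and 286 to 494 CPM. The endothelial and adipocyte sums did not overlap between groups. The endothelial separation came largely from 1 gene, EMCN, which made up most of the sum in every Myc1 library. It stood at 7.28, 6.72 and 22.2 CPM in Myc1 and 1.37, 5.0, 1.25 and 5.2 CPM in Scr1. Of the 12 listed endothelial markers 2 were tested, both above 0, of 8 adipocyte markers 2, both below 0, of 12 astrocyte markers 6, with 5 above 0, and of 16 microglia and macrophage markers 4, with 2 above 0. The tables list human genes, and how mouse reads were handled is not given in the sources used here. In bulk tumour RNA, fewer cells of a type and less RNA per cell cannot be told apart.

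No gene passed the threshold. Of 13933 genes with at least 1 CPM in 3 or more libraries, 0 (0.0%) had an adjusted p under 0.05 by limma with Benjamini-Hochberg adjustment, and the smallest adjusted p was 0.0916. An unadjusted p under 0.05 was reached by 485 genes (3.48%), of which 273 stood higher in Myc1 (1.96%) and 212 lower (1.52%). The 2 groups did not overlap for 586 genes (4.21%), of which 270 were higher (1.94%) and 316 lower (2.27%) in Myc1. Differences above 0 made up 49.5% of all tested genes. The unadjusted count was set to a large degree by single mice: it came to 169 when Myc1 replicate 3 was left out, 279 without Scr1 replicate 4, 783 without Scr1 replicate 2 and 955 without Scr1 replicate 3. Everything below is a difference that did not pass the adjusted test, except where an alternative is named, and "higher" and "lower" state direction only. Differences are on the log2 scale with the standard error of the limma fit (n = 3 and n = 4).

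MYC itself did not separate the groups. Its levels were 38.1, 26.5 and 14.3 CPM in Myc1 and 21.2, 30.2, 50.7 and 108 CPM in Scr1. The highest value was Scr1 replicate 4 and the lowest Myc1 replicate 3, and the other 5 libraries overlapped. The difference was -0.83 ± 0.54 with a 95% interval of -2.06 to 0.40, and an exact two-sided permutation test over the 35 arrangements of labels gave p = 0.314, where the smallest possible is 0.0286. Single libraries moved it: it came to -0.39 when Scr1 replicate 4 was left out, to -0.45 when Myc1 replicate 3 was, to -1.17 when Scr1 replicate 1 was, and to -0.52 with sample quality weights. The interval holds a marked loss of the transcript as well as no loss, so the estimate was not told apart from no change with these mice.

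Among the partners and competitors of MYC, 10 of 14 listed genes were tested, 3 had differences above 0 (49.5% of all tested genes did), and 1, MXI1, had an unadjusted p under 0.05 (3.48% of all tested genes). MXI1, a repressor that competes with MYC for MAX and is also a known hypoxia-responsive gene, stood at 17.6, 18.8 and 51.6 CPM in Myc1 and 12.9, 17.5, 8.15 and 11.4 CPM in Scr1. Its groups did not overlap, but the lower Myc1 libraries lay close to Scr1 replicate 2, and the difference of 1.09 ± 0.39 became 0.59 without Myc1 replicate 3. MAX, the shared partner, differed by 0.02 ± 0.23, MXD1 by -0.36 ± 0.30, and MNT, another repressor, by -0.26 ± 0.28. MLXIP, a glucose-sensing member of the extended network, stood at 77.4, 65.3 and 69.9 CPM against 108, 72.7, 70.9 and 136 CPM, a difference of -0.40 ± 0.25 with overlapping groups. The plot of the MYC network by mouse shows these levels.

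**Figure D1:**
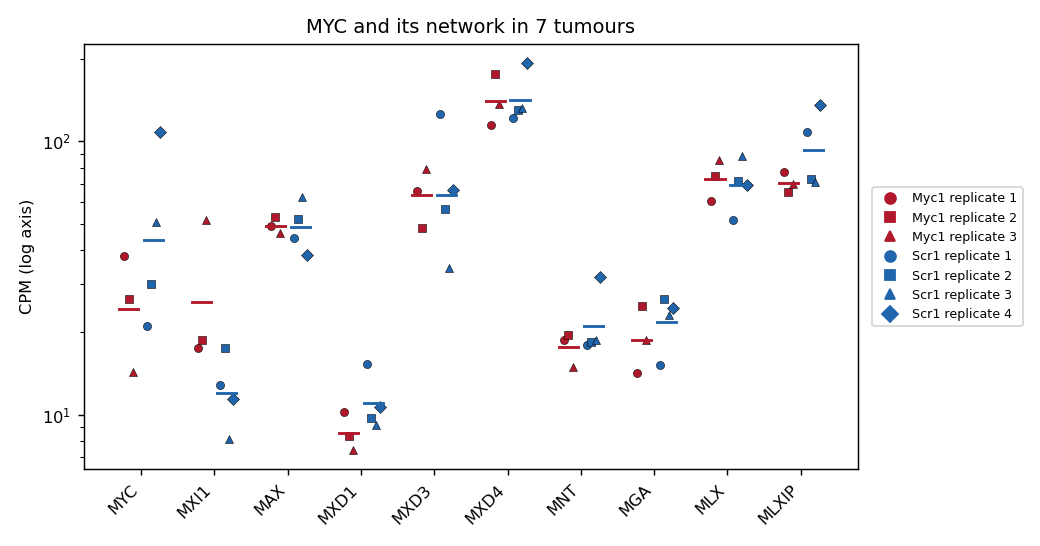
Level of each tested gene of the MYC network in every mouse (CPM, log axis), Myc1 in red and Scr1 in blue, 1 symbol per replicate and a bar at each group's mean of the log values. MYC overlaps between groups, while all 3 Myc1 points of MXI1 lie above the 4 Scr1 points.

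Genes that MYC is known to drive were centred near 0. Of 28 nucleolar and ribosome assembly genes, 14 lay above and 14 below 0, with a median of -0.0 and a range of -0.45 to 0.30, and 0 had an unadjusted p under 0.05. Of 22 metabolic targets (enzymes of nucleotides, polyamines and amino acids among them), 13 lay below 0, with a median of -0.09, and 0 had an unadjusted p under 0.05. The median of all tested genes was -0.0028.

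AQP9 (ENSG00000103569), a channel for water, glycerol and other small solutes, had the smallest p of all genes. It stood at 37.4, 36.3 and 47.7 CPM in Myc1 and at 10.7, 13.6, 12.9 and 8.52 CPM in Scr1. The lowest Myc1 library was above the highest Scr1 library by more than the spread within either group. The difference was 1.83 ± 0.27, or 3.57-fold, with an interval of 1.27 to 2.40 (limma unadjusted p = 6.58e-06, adjusted p = 0.0916). It ranged from 1.70 to 1.93 when single libraries were left out, and its adjusted p was 0.0471 when only genes with at least 5 CPM in 3 or more libraries were tested. AQP1, another aquaporin, named for its role after its values were seen, stood at 16.2, 12.2 and 11.2 CPM against 11.9, 5.99, 7.04 and 10.6 CPM, a difference of 0.61 ± 0.33.

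**Figure D2:**
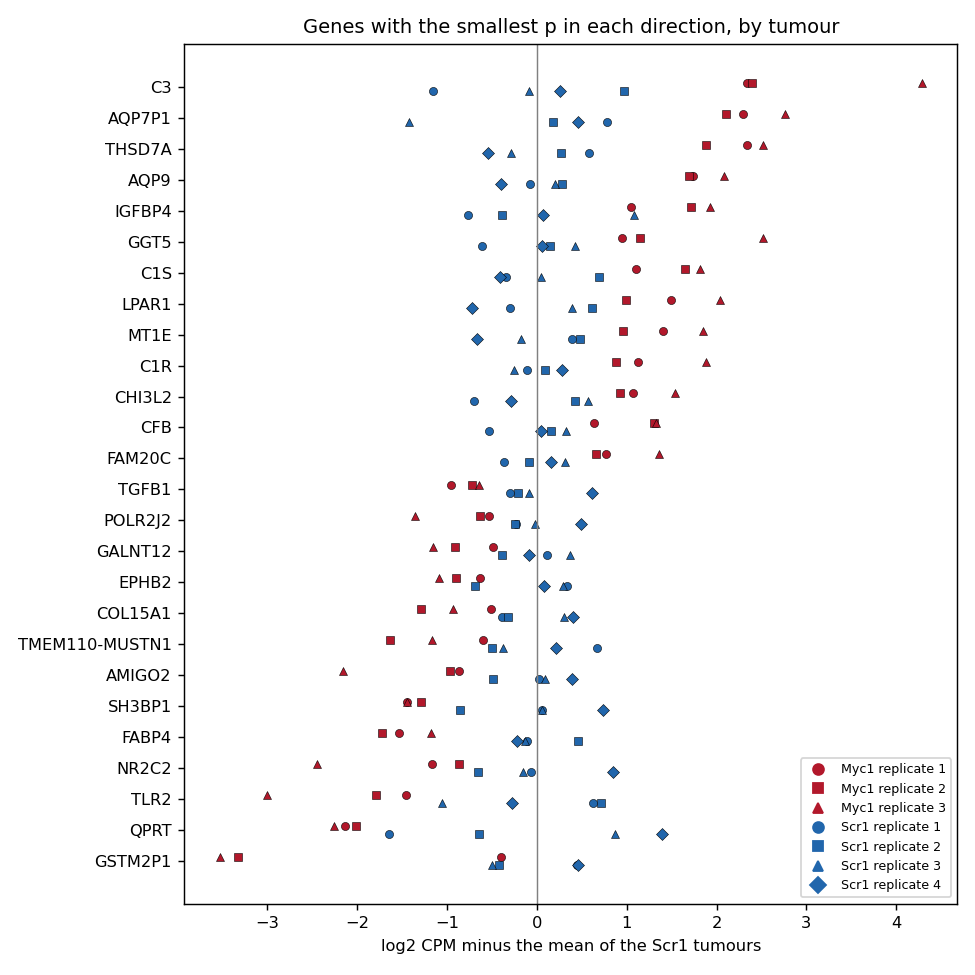
Genes from among the 14 higher and 14 lower with the smallest limma p, with each tumour drawn as its log2 CPM minus the mean of the Scr1 tumours (horizontal axis), Myc1 in red and Scr1 in blue, 1 symbol per replicate. The Myc1 symbols of AQP9 lie close together to the right of all Scr1 symbols, while IGFBP4, EPHB2 and GSTM2P1 overlap between groups.

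The other genes among the 14 with the smallest p in the higher direction fell into complement (C3, C1S, C1R and CFB), a metallothionein (MT1E), and genes of varied function, drawn in the plot of the leading genes. THSD7A, a membrane protein, stood at 2.67, 1.95 and 3.04 CPM in Myc1 and 0.364 to 0.788 CPM in Scr1, a difference of 2.24 ± 0.52. It was below 1 CPM in every Scr1 library and passed the filter only through the Myc1 libraries, so it had to differ, and few reads set its level. AQP7P1 passed in the same way. GGT5, which converts leukotriene C4, differed by 1.54 ± 0.37, and LPAR1, a receptor for lysophosphatidic acid, by 1.51 ± 0.38. FAM20C, the kinase of secreted phosphoproteins, was abundant, with 232, 215 and 349 CPM in Myc1 and 106, 128, 169 and 153 CPM in Scr1, and differed by 0.93 ± 0.24. CHI3L2, a secreted chitinase-like protein, stood at 86.3, 78.4 and 119 CPM against 25.3, 55.2, 60.9 and 33.5 CPM, a difference of 1.18 ± 0.30. AQP7P1, a pseudogene of the same set, shares sequence with other aquaporin genes, so its level is uncertain.

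Complement genes leaned higher in Myc1, with the largest differences in C3, C7, C4B, C1S and C1R. Of 19 tested genes of 29 listed, 15 had differences above 0 (49.5% of all tested genes did), 8 were higher and 0 lower at an unadjusted p under 0.05 (1.96% and 1.52% of all tested genes), and the groups did not overlap for 6 (4.21%). The median was 0.71, against -0.0028 over all genes. With single libraries left out, the count at an unadjusted p under 0.05 was 6 to 9, and the median was 0.39 when Myc1 replicate 3 was left out and 0.41 when Scr1 replicate 1 was.

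C1R and C1S are the proteases of the first complement component. C1R stood at 74.1, 62.4 and 124 CPM in Myc1 and 31.4, 35.9, 28.4 and 41.1 CPM in Scr1, a difference of 1.29 ± 0.26. C1S stood at 30.2, 44.1 and 49.5 CPM against 11.1, 22.6, 14.5 and 10.6 CPM, a difference of 1.53 ± 0.31. Neither overlapped between groups. The C4 proteins, which C1S cleaves, are encoded by a near-identical pair of genes whose reads can be assigned to either, so their separate levels are uncertain. C4B stood at 12.9, 38.6 and 34.2 CPM against 4.88, 9.72, 10.1 and 12.5 CPM, and differed by 1.55 ± 0.41, while C4A differed by 0.81 ± 0.35 with overlap. C2, the partner of C4 in the C3 convertase, differed by 0.71 ± 0.40 and missed an unadjusted p of 0.05 although its groups did not overlap.

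C3 (ENSG00000125730), the central component on which the pathways converge, stood at 14.9, 15.4 and 57.9 CPM in Myc1 and 1.32, 5.77, 2.78 and 3.53 CPM in Scr1. All 3 Myc1 libraries were above every Scr1 library, with Myc1 replicate 3 far above the others. The difference was 3.01 ± 0.56, or 8.05-fold, with an interval of 1.79 to 4.23 (limma unadjusted p = 0.000167, adjusted p = 0.731), and it was 2.36 to 3.34 with single libraries left out. CFB, the protease of the alternative pathway, stood at 46.0, 72.8 and 74.1 CPM against 20.4, 33.0, 36.9 and 30.4 CPM, a difference of 1.09 ± 0.27 without overlap. Of the terminal components, C5 stood at 12.5, 14.6 and 8.32 CPM against 3.91, 8.51, 7.04 and 3.53 CPM, a difference of 1.10 ± 0.38. C7 stood at 1.82, 7.78 and 17 CPM against 1.28, 2.14, 0.432 and 0.411 CPM, a difference of 2.89 ± 0.79. In both, 1 Myc1 library fell within the Scr1 range.

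Of the regulators, 0 had an unadjusted p under 0.05. The membrane inhibitors CD46, CD55 and CD59 differed by -0.07 ± 0.24, 0.32 ± 0.28 and 0.15 ± 0.20. CLU, which holds back the terminal complex, was among the most abundant of the list at 613 to 863 CPM in Myc1 and 545 to 850 CPM in Scr1, and differed by 0.13 ± 0.22. CFI, which inactivates C3b, differed by 0.75 ± 0.43, close to the component C2. The receptors C3AR1 and C5AR1 differed by -0.20 ± 0.36 and -0.38 ± 0.49. The difference between components and regulators was not tested. Endothelial marker sums were higher in Myc1 as well, largely through EMCN, while astrocyte marker sums overlapped between groups. Their values are given with the host markers, and their part in the complement result was not tested.

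The promoter of CFB is shown because CFB is the complement gene of the leading set with a single start in the table of RefSeq promoters (GRCh38.p14), and factors of the STAT family are known to bind the palindrome searched for. Of the 8 complement genes, 4 matched that table and 3 held the letters TTCNNNGAA within the 250 bases before at least 1 of their starts. C1R held 1 match at one start and 0 at another, and C5 held 0 at each of its starts. Counted per promoter and not per gene, 6.57% of 35116 promoters held the letters. The stretch is chr6:31945845-31946094, plus strand, 5′ to 3′, with the match in capitals.
CFB: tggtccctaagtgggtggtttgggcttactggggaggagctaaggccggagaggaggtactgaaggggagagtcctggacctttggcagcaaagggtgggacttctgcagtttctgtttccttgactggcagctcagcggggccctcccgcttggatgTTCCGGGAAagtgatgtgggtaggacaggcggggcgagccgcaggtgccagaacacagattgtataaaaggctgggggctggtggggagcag
The single match lies between the middle of the window and the start of the gene. A match is a description of letters and not a site of binding.

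Metallothioneins are small cysteine-rich proteins that bind zinc and copper. Of 5 tested genes of this family, 1 of them a pseudogene, 4 leaned higher in Myc1, though not in every mouse. Of 8 tested genes of the 15 listed for metallothioneins and zinc, 6 had differences above 0 (49.5% of all tested genes did) and 4, all of them metallothioneins, were higher at an unadjusted p under 0.05 (1.96% of all tested genes). The median was 0.49, and it was 0.31 without Myc1 replicate 1 and up to 0.73 with other libraries left out. The genes are near-identical copies side by side on chromosome 16, so reads can be split between them and each level is uncertain.

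The 2 members below carry the letters of the metal response element core, the element that the zinc-sensing factor MTF1 is known to bind, several times in the 250 bases before the start (RefSeq, GRCh38.p14). Of these 4 metallothioneins, 2 matched the promoter table. The search took TGCACNC and TGCGCNC on either strand, and overlapping matches were allowed. MT1X is shown at chr16:56682220-56682469 and MT2A at chr16:56608334-56608583, both on the plus strand, 5′ to 3′, with matches in capitals.
MT1X: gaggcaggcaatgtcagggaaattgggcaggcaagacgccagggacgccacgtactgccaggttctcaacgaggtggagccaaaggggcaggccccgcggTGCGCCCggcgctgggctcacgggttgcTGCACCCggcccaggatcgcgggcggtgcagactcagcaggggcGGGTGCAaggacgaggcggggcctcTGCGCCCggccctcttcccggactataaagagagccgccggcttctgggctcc
MT2A: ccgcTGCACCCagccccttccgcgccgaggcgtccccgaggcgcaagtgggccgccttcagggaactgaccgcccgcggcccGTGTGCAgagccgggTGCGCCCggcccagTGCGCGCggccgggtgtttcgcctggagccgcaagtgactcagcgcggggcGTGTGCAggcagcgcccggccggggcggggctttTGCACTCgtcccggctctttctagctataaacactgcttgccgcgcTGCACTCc
MT1X held 4 matches and MT2A held 7. At least 1 match was found in 24.8% of 35116 promoters, at least 4 in 0.37% and at least 7 in 0.0313%.

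MT2A, the most abundant, stood at 1080, 629 and 1070 CPM in Myc1 and 500, 613, 473 and 844 CPM in Scr1, a difference of 0.60 ± 0.25 with overlap. MT1X stood at 61.7, 17.3 and 79.5 CPM against 16.9, 14.2, 17.4 and 14.6 CPM. Its Scr1 libraries lay close together, Myc1 replicate 2 lay among them and the other 2 Myc1 libraries far above, so that the difference of 1.48 ± 0.43 became 2.16 without Myc1 replicate 2, with a limma adjusted p of 0.0134. MT1E stood at 181, 133 and 247 CPM against 89.8, 95.6, 60.5 and 43.0 CPM, a difference of 1.40 ± 0.30 without overlap. MT1F stood at 5.41, 2.31 and 11.2 CPM against 1.69, 1.76, 0.694 and 1.10 CPM, a difference of 2.08 ± 0.54 without overlap. In all 4 genes Myc1 replicate 2 was the lowest of its group. MT1L, the fifth tested member and a pseudogene, stood at 29.5, 16.7 and 43.5 CPM against 20.3, 20.9, 32.5 and 28.2 CPM, a difference of 0.15 ± 0.32. MTF1 itself differed by -0.21 ± 0.25, and SLC30A1, the zinc exporter that MTF1 is known to induce, by 0.38 ± 0.34.

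Genes of cholesterol synthesis and uptake were lower in Myc1. Of 23 tested genes of 26 listed, 19 had differences below 0 (50.5% of all tested genes did). The groups did not overlap for 6, all lower (2.27% of all tested genes). At an unadjusted p under 0.05, 6 were lower and 0 higher (1.52% and 1.96% of all tested genes). The median was -0.40, and it was -0.45 to -0.27 with single libraries left out. The count of 6 was 1 without Myc1 replicate 1, 3 without Myc1 replicate 2 or Scr1 replicate 1, and 8 without Myc1 replicate 3. It was 2 with limma without its trend and robust settings.

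SREBF2, the transcription factor that drives this pathway when sterols are low, stood at 60.8, 72.5 and 78.1 CPM in Myc1 and 124, 89.4, 85.3 and 177 CPM in Scr1, a difference of -0.70 ± 0.26. Every Myc1 library lay below every Scr1 library, and Scr1 replicate 4 was the highest. SCAP, which escorts the SREBP factors out of the endoplasmic reticulum, stood at 58.3, 69.6 and 45.7 CPM against 79.4, 79.6, 98.0 and 144 CPM, a difference of -0.77 ± 0.25. Among the enzymes, SQLE stood at 75.2, 80.2 and 99.9 CPM against 132, 115, 119 and 99.9 CPM, a difference of -0.46 ± 0.21 in which the nearest libraries of the 2 groups were equal to 3 digits. FDFT1, which makes squalene, differed by -0.46 ± 0.21 without overlap, and HMGCS1, an enzyme of the early steps, by -0.52 ± 0.24 with overlap. SCAP, FDFT1 and HMGCS1 were named for their roles after their values were seen.

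SREBF2 is known to act on its own promoter, and its start region is printed for that reason. Of the 6 sterol genes, 2 matched the RefSeq promoter table (GRCh38.p14) and 1 held the sterol regulatory element, with 1 free position and searched on either strand. HMGCS1, the other matched gene, held 0 at each of its starts. Counted per promoter and not per gene, 0.125% of 35116 promoters held the element. The stretch is chr22:41832855-41833104, plus strand, 5′ to 3′, with the match in capitals.
SREBF2: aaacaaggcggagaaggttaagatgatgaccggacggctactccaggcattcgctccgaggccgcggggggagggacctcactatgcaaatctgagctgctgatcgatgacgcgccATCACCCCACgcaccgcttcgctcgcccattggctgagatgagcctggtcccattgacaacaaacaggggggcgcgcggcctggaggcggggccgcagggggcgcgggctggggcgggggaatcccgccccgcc
The window holds 1 match, near its middle.

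Of 19 tested genes of lipid carriers and PPAR signalling, 12 lay above and 7 below 0 (49.5% and 50.5% of all tested genes). At an unadjusted p under 0.05, 2 were higher and 2 lower (1.96% and 1.52% of all tested genes). The higher pair were ABCA1 and APOE. ABCA1, which passes cholesterol to apolipoproteins, stood at 26.7, 16.1 and 21.1 CPM in Myc1 and 5.29, 15.2, 7.37 and 16.2 CPM in Scr1, a difference of 1.07 ± 0.39. The groups met at 16.1 and 16.2 CPM. APOE, the main lipoprotein of the brain, stood at 9.82, 26.9 and 72.3 CPM against 4.10, 5.62, 8.81 and 3.93 CPM, a difference of 2.33 ± 0.57 without overlap. Without Myc1 replicate 1 the APOE difference was 3.05 with a limma adjusted p of 0.0367. The plot of complement, metallothionein and sterol genes sets the mice side by side.

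**Figure D3:**
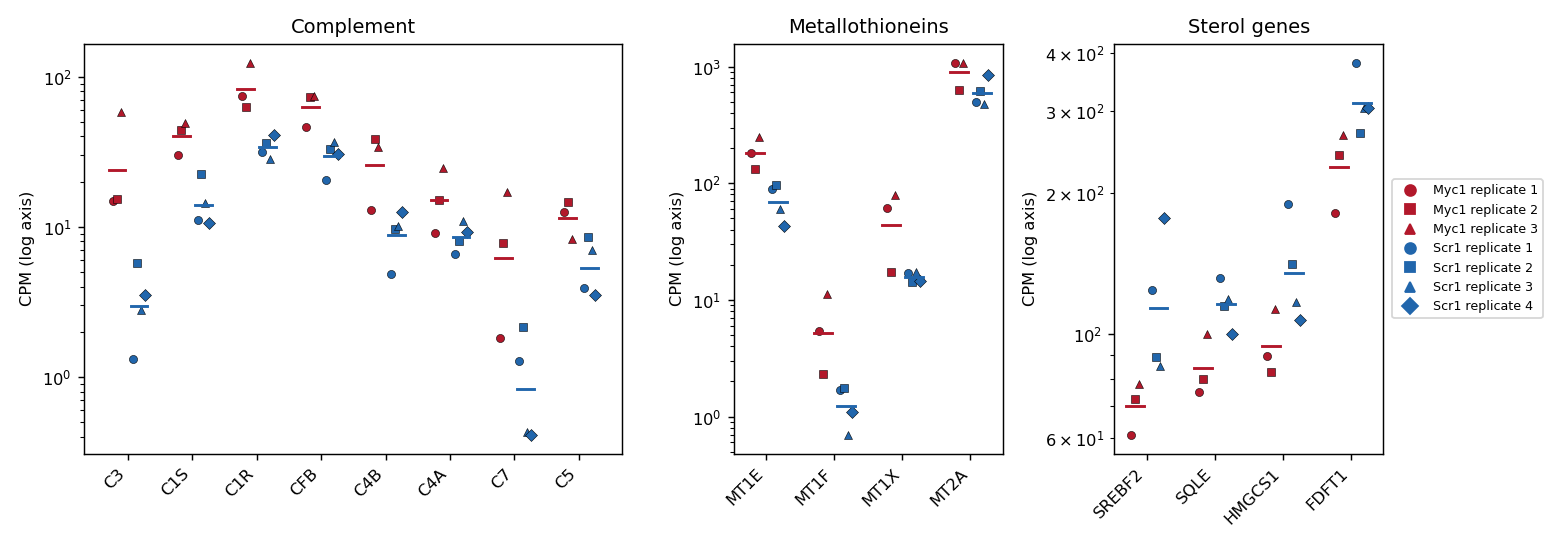
Level of complement, metallothionein and sterol genes in each mouse (CPM, log axes), Myc1 in red and Scr1 in blue, 1 symbol per replicate and a bar at each group's mean of the log values. C3 and C1S of all Myc1 mice lie above the Scr1 mice, MT1X of Myc1 replicate 2 lies among them, and SREBF2 of all Myc1 mice lies below.

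FABP4, a fatty acid carrier of adipocytes and macrophages, was the gene with the smallest p in the lower direction. It stood at 1.56, 1.37 and 1.99 CPM in Myc1 and 4.16, 6.2, 4.12 and 3.87 CPM in Scr1, a difference of -1.48 ± 0.38 without overlap. PPARG, the nuclear receptor known to drive FABP4, stood at 16.5, 11.8 and 12.9 CPM against 28.8, 18.0, 14.9 and 30.6 CPM, a difference of -0.70 ± 0.31. These are the 2 tested genes of the adipocyte list, whose sum was lower in Myc1 as given above, while PLIN1, a defining adipocyte gene, was under 1 CPM in every library.

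The myeloid surface receptors TLR2 and MSR1 were also among the lower genes, at low levels. Both were above 1 CPM in every Scr1 library but in only 1 Myc1 library. They passed the filter through the Scr1 libraries, so the filter favoured a difference in this direction. TLR2, a receptor of innate immunity, stood at 1.19, 0.942 and 0.406 CPM in Myc1 and 5.03, 5.32, 1.56 and 2.67 CPM in Scr1, a difference of -2.08 ± 0.55. MSR1, a scavenger receptor of macrophages, stood at 0.478, 1.28 and 0.172 CPM against 1.61, 1.64, 1.25 and 1.66 CPM, a difference of -1.70 ± 0.65 with 1 Myc1 library inside the Scr1 range. The MSR1 difference was -2.42 to -0.97 with single libraries left out. The summed microglia and macrophage markers were not lower in Myc1, at the values given with the host markers. Their mean log2 CPM over the tested markers, MSR1 among them, went the other way. It was 4.32 in Myc1 (standard deviation 0.29) and 4.67 in Scr1 (0.21), with overlap.

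Other lower genes of the leading set act in signalling and adhesion. SH3BP1, a GTPase regulator, stood at 4.88, 5.44 and 4.88 CPM in Myc1 and 13.8, 7.35, 13.8 and 22.2 CPM in Scr1, a difference of -1.39 ± 0.36. TGFB1, the growth factor TGF-beta 1, stood at 120, 142 and 150 CPM against 190, 202, 220 and 360 CPM, a difference of -0.78 ± 0.24 without overlap. TGFB2 lay the other way at 1.00 ± 0.43 with overlap. AMIGO2, an adhesion protein, differed by -1.33 ± 0.38, EPHB2, an ephrin receptor, by -0.88 ± 0.27, and COL15A1, a basement membrane collagen, by -0.90 ± 0.28. GLI1, the transcriptional target that reads out Hedgehog signalling, named after its values were seen, stood at 9.76, 7.08 and 12.8 CPM against 35.6, 12.3, 17 and 39.7 CPM, a difference of -1.28 ± 0.40. Of the same set, GSTM2P1 is a pseudogene, TMEM110-MUSTN1 a read-through and POLR2J2 one of several near-identical copies, and their levels are uncertain. GSTM2P1 was above 1 CPM in every Scr1 library but in only 1 Myc1 library, so the filter favoured a lower value in Myc1.

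Enzymes of NAD metabolism split. QPRT, which makes NAD from quinolinate, stood at 3.75, 4.08 and 3.44 CPM in Myc1 and 5.29, 10.6, 30.1 and 43.0 CPM in Scr1, a difference of -2.13 ± 0.62 without overlap. The Myc1 libraries lay close together and the Scr1 libraries were spread widely. NAMPT, the enzyme of the salvage route, stood at 261, 106 and 184 CPM against 75.9, 148, 76.0 and 68.5 CPM, a difference of 0.98 ± 0.33 with overlap. NNMT, which methylates nicotinamide, differed by 1.48 ± 0.60 with overlap.

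Of the 3 lists of glioblastoma states, the mesenchymal-like one was the longest and held the most genes past the unadjusted threshold. Its share, 11 of 46, was close to the 3 of 13 of the astrocyte-like list. Of 46 tested mesenchymal-like genes, 33 had differences above 0, 11 were higher and 0 lower at an unadjusted p under 0.05, with a median of 0.19. Over all tested genes 49.5% lay above 0, 1.96% were higher and 1.52% lower at that p, and these shares are the background for the lists that follow. C3, C1S, C1R and MT1E, described above, are 4 of the 11. With single libraries left out the count was 8 to 13 and the median 0.13 to 0.28. CHI3L1, a secreted marker of the mesenchymal state that was named after its values were seen, stood at 175, 118 and 863 CPM in Myc1 and 53.4, 112, 57.5 and 53.5 CPM in Scr1. Myc1 replicate 3 was far above the rest and Myc1 replicate 2 barely above Scr1 replicate 2, and the difference of 2.00 ± 0.69 became 1.13 without Myc1 replicate 3.

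Of 13 tested astrocyte-like genes of 31 listed, 8 had differences above 0 and 3 were higher at an unadjusted p under 0.05 (1.96% of all tested genes), with a median of 0.13. Without Myc1 replicate 2 or Myc1 replicate 3 it was 6 of 12 above 0, 2 higher at that p and a median of 0.03, and with at least 5 CPM in 3 or more libraries 1 of 9 was. Among the 3 were APOE and SLC4A4, the sodium bicarbonate transporter of astrocytes, the latter of which stood at 1.94, 1.10 and 2.66 CPM against 0.495, 0.794, 0.432 and 0.154 CPM. SLC4A4 passed the filter only through the Myc1 libraries, so it had to differ and its count is no support. Of 11 tested progenitor-like and proneural genes of 30 listed, 8 lay above 0 and 1, SOX4, was higher at an unadjusted p under 0.05. SOX4, a transcription factor of neural progenitors, stood at 8.12, 9.27 and 11.1 CPM against 2.35, 7.48, 4.12 and 3.29 CPM, a difference of 1.26 ± 0.40. The median of the progenitor-like list was 0.17, and 0.09 without Myc1 replicate 3, Scr1 replicate 3 or Scr1 replicate 4.

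Of 16 genes of the insulin-like growth factor axis, 10 had differences above 0 (49.5% of all tested genes did) and 4 were higher at an unadjusted p under 0.05 (1.96% of all tested genes), all of them secreted binding or processing proteins. IGFBP4 stood at 24.8, 39.5 and 45.6 CPM in Myc1 and 7.03, 9.15, 25.3 and 12.5 CPM in Scr1, a difference of 1.57 ± 0.40. IGFBP2 differed by 1.83 ± 0.48 and IGFBP5 by 1.80 ± 0.64, both at low levels in Scr1. STC2, an inhibitor of the protease that cleaves IGFBP4, differed by 2.45 ± 1.00, with 1 Scr1 library near the lowest value. The count of 4 was 2 without Myc1 replicate 3. With at least 5 CPM in 3 or more libraries, 9 genes were tested, 5 lay above 0, 1 was higher at that p and the median was 0.0, against 0.18.

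NF-kB target genes leaned higher in 1 mouse more than in the others. Of 23 tested genes, 18 had differences above 0 (49.5% of all tested genes did) and 4 were higher at an unadjusted p under 0.05 (1.96% of all tested genes), with a median of 0.46. Without Myc1 replicate 3 the numbers were 12 of 22 above 0, 1 at an unadjusted p under 0.05, and a median of 0.02. Without Scr1 replicate 3 the count was 2, and without Myc1 replicate 2 it was 7. With at least 5 CPM in 3 or more libraries, 14 genes were tested, with 2 at that p and a median of 0.20. IL1R1, the interleukin 1 receptor, stood at 97.0, 69.0 and 69.9 CPM against 21.6, 67.0, 22.9 and 31.7 CPM, a difference of 1.28 ± 0.35, and the nearest libraries were 2 CPM apart. ICAM1, an adhesion molecule, differed by 1.76 ± 0.66, and NFKBIA, the inhibitor that NF-kB itself induces, by 0.63 ± 0.26.

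Hypoxia genes showed the same dependence on that mouse. Of 29 tested genes, 24 had differences above 0 (49.5% of all tested genes did) and 4, with MXI1 among them, were higher at an unadjusted p under 0.05 (1.96% of all tested genes), with a median of 0.29. Without Myc1 replicate 3 the median was 0.08 and the count 1. The count was 2 without Scr1 replicate 1 or Scr1 replicate 4, and 6 to 8 without Scr1 replicate 2, Myc1 replicate 1 or Myc1 replicate 2. BNIP3L, a mitophagy receptor, stood at 104, 72.1 and 187 CPM against 45.7, 90.3, 68.1 and 40.4 CPM, a difference of 0.95 ± 0.34. LOX, which cross-links collagen, differed by 0.79 ± 0.30, and P4HA1, which hydroxylates collagen proline, by 0.67 ± 0.28.

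Genes of the RNA interference machinery, through which the siRNA acts, lay slightly below 0. Of 16 tested genes, 14 had differences below 0 (50.5% of all tested genes did), 1 had an unadjusted p under 0.05, a share near the 3.48% over all tested genes, and the median was -0.15, against -0.0028 over all genes. With single libraries left out the median was -0.20 to -0.15 and the count 0 to 2. AGO2, the slicing Argonaute, stood at 2.95, 3.04 and 3.08 CPM in Myc1 and 6.64, 4.46, 3.78 and 7.72 CPM in Scr1, a difference of -0.84 ± 0.36 without overlap. DICER1 and DROSHA, the processing enzymes, differed by -0.14 ± 0.27 and -0.13 ± 0.23.

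Genes that sense foreign RNA, or that interferon induces, had a direction that depended on single mice. Of 36 tested, 17 lay above and 19 below 0, with a median of -0.04, and 2 were higher and 1 lower at an unadjusted p under 0.05 (1.96% and 1.52% of all tested genes). Without Scr1 replicate 1 it was 10 above and 25 below 0, with a median of -0.22 and 3 lower at that p, and without Scr1 replicate 3 it was 21 above and 14 below 0. The sensors DDX58, IFIH1 and TLR3 differed by -0.30 ± 0.34, -0.32 ± 0.41 and -0.58 ± 0.36, and EIF2AK2, the kinase activated by double-stranded RNA, by 0.06 ± 0.26. DICER1, DROSHA and these 4 were named for their roles after their values were seen. OAS2, an antiviral synthetase, differed by -0.70 ± 0.31, and IFITM1 by 1.24 ± 0.49. Both groups received exosomes with an siRNA, so a response common to both kinds cannot be seen in this comparison.

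The medians of large housekeeping groups depended on single libraries. Of 76 cytoplasmic ribosomal protein genes, 70 had differences above 0, with a median of 0.22 and 0 at an unadjusted p under 0.05. Without Scr1 replicate 4 it was 51 of 76, with a median of 0.04. Of 45 respiratory chain genes, 37 lay above 0 with a median of 0.21, which was 0.09 without the same library. Of 38 genes of the G1/S phase, 31 lay below 0 with a median of -0.16, and the median ran from -0.31 without Scr1 replicate 3 to -0.03 without Scr1 replicate 1. The 47 genes of the G2/M phase had a median of -0.01 that turned from -0.31 without Scr1 replicate 3 to 0.21 without Scr1 replicate 1. The plot of list medians gives these beside the groups described above.

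**Figure D4:**
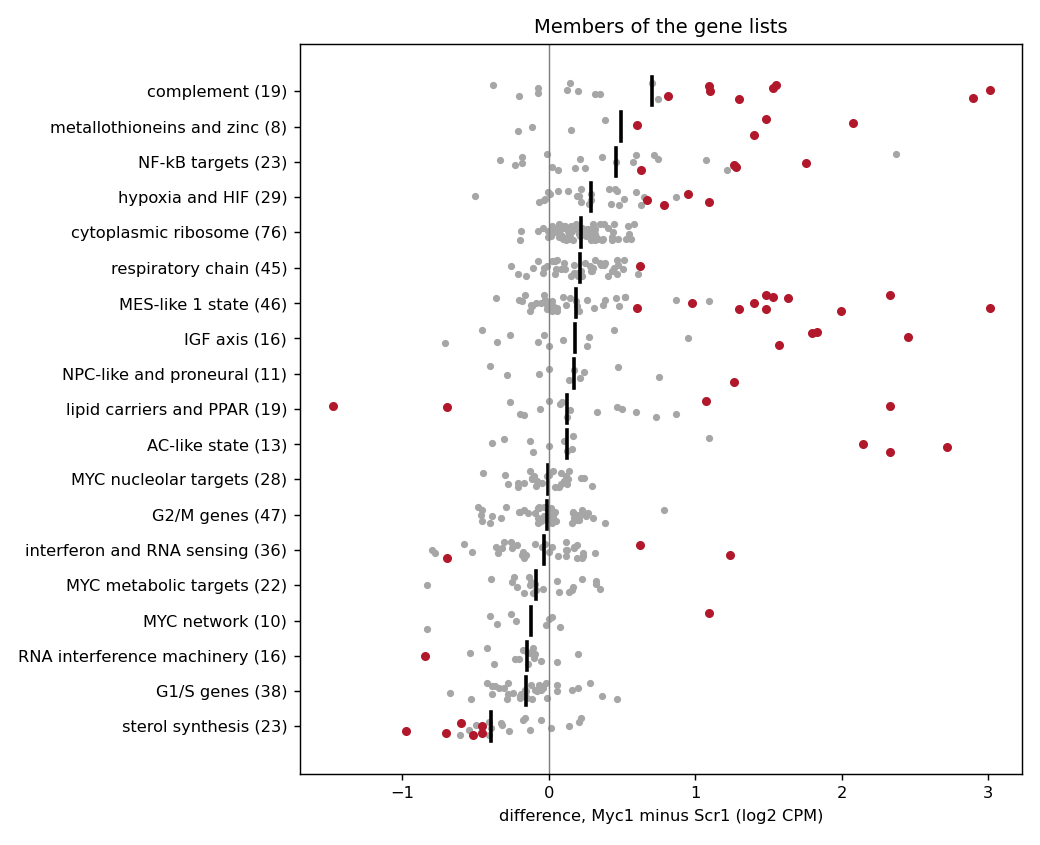
Difference Myc1 minus Scr1 (log2 CPM, horizontal axis) of each tested gene in 19 lists, 1 point per gene, red where the unadjusted p was under 0.05, with a black bar at each list's median and the number of genes in parentheses. Of the lists drawn complement has the highest median, at 0.71, and sterol genes the lowest, at -0.40, while MYC's nucleolar targets centre on 0.

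The second experiment, with another siRNA and other mice, gave its own values for the same genes. In its 9 libraries the libraries labelled Myc2 had more MYC than those labelled Scr2, by 0.57 ± 0.21, so the labels name the treatment given and not a lower MYC level. Scr2 replicates 1 and 4 stand apart from the rest there. Of 14208 genes tested, 0 passed the adjusted test, and 48.2% had differences above 0 and 51.8% below. At an unadjusted p under 0.05, 995 genes were higher (7.0%) and 903 lower (6.36%). Of the 28 leading genes of the siRNA 1 comparison, 27 were tested, and 20 had the same direction: 11 of 13 higher and 9 of 14 lower. At an unadjusted p under 0.05 in that direction there were 5 of the 13 and 3 of the 14. In the same libraries 29 of 29 hypoxia genes lay above 0, with a median of 0.91. NF-kB targets did so in 24 of 24, with a median of 1.19. Cytoplasmic ribosomal protein genes, mostly above 0 with siRNA 1, were above 0 in 0 of 76, with a median of -0.4. For respiratory chain genes it was 2 of 45. The part of Scr2 replicates 1 and 4 in these values was not tested.

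The complement genes that stood out with siRNA 1 mostly kept their direction in the second experiment. Of 18 tested genes of the list, 13 lay above 0, with a median of 0.34, and C2, CD55 and CD59, above 0 with siRNA 1, differed by -0.05 ± 0.59, -0.16 ± 0.25 and -0.37 ± 0.20. Of the 8 that were higher with siRNA 1 at an unadjusted p under 0.05, 7 were tested, all 7 had differences above 0, and 6 had an unadjusted p under 0.05. C3 differed by 3.00 ± 1.30, C1S by 1.49 ± 0.48, C1R by 1.04 ± 0.41, CFB by 0.73 ± 0.32, C4B by 2.61 ± 0.74, C4A by 1.76 ± 0.54 and C5 by 0.19 ± 0.39. Without Scr2 replicates 1 and 4 the differences were 3.34 for C3, 1.25 for C1S, 1.17 for C1R, 0.79 for CFB, 1.83 for C4B, 0.99 for C4A and -0.01 for C5, and 1 of the 7, C4A, kept an unadjusted p under 0.05. With single libraries left out, the number at an unadjusted p under 0.05 was 3 to 6, and 3 without Myc2 replicate 2 or Scr2 replicate 4. C3 differed by 1.71 (limma unadjusted p = 0.142) without Scr2 replicate 3. Outside complement, APOE, at 1.79 ± 0.61, CHI3L1, at 2.61 ± 0.54, FAM20C, at 1.39 ± 0.36, and IL1R1, at 0.94 ± 0.25, were higher with siRNA 2. FABP4, at -1.65 ± 0.67, PPARG, at -1.25 ± 0.40, and GLI1, at -1.03 ± 0.39, were lower. These genes were picked because they kept their direction. Others did not, among them QPRT, at 0.18 ± 0.55, SLC4A4, at -0.02 ± 0.86, and TGFB2, at -0.31 ± 0.41. Their values without Scr2 replicates 1 and 4 are not reported here.

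Metallothioneins and sterol genes did not repeat their direction. MT1E, MT1F, MT1X and MT2A differed by -0.04 ± 0.28, -0.05 ± 0.45, 0.03 ± 0.32 and -0.20 ± 0.22, so 1 of 4 lay above 0. Of the 6 sterol genes, 2 lay below 0, and SREBF2 differed by 0.24 ± 0.26. AQP9 differed by 0.33 ± 0.81 and TGFB1 by 0.34 ± 0.19. In a joint limma fit, in which each effect is taken within its own experiment, the difference between the 2 effects passed the adjusted test for 0 of 14891 genes and had an unadjusted p under 0.05 for 1301 (8.74%), so these genes are not shown to differ between the siRNAs. For MT1E that difference was 1.44 ± 0.44 (limma adjusted p = 0.532).

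**Figure D5:**
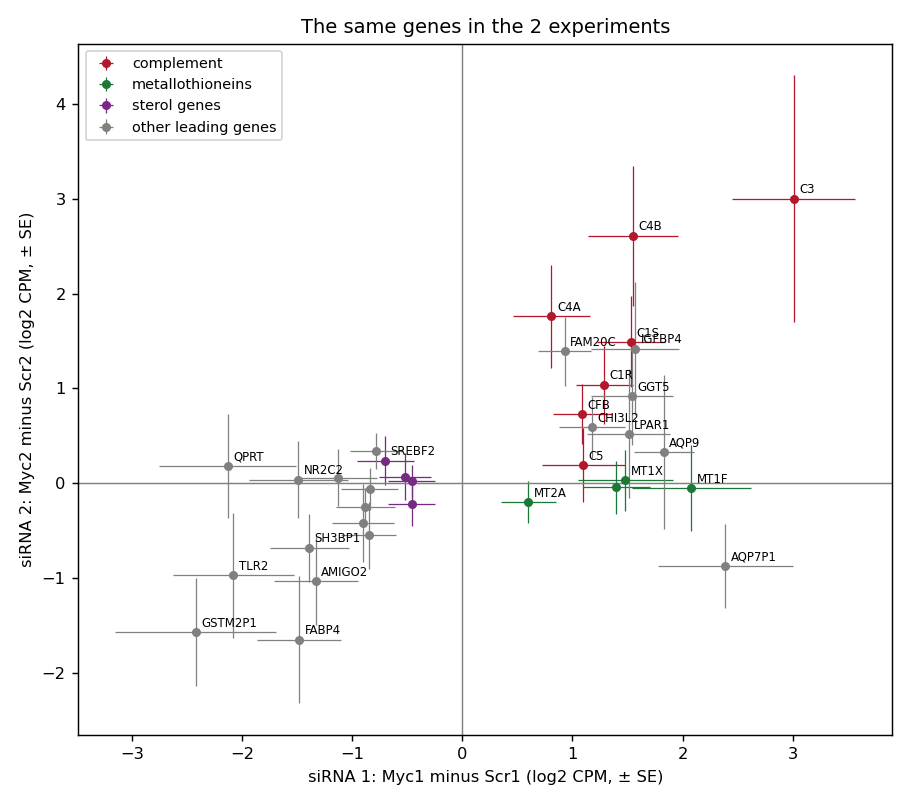
Difference Myc1 minus Scr1 (horizontal axis) against Myc2 minus Scr2 (vertical axis), both log2 CPM with standard errors, for complement, metallothionein, sterol and leading genes, 1 point per gene. Complement genes lie at the upper right, with C3 at 3.01 and 3.00, except C5 at 1.10 and 0.19. Metallothioneins, like C5, lie near 0 on the vertical axis.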

How the data were processed

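RNA of 7 tumours (3 Myc1, 4 Scr1) and, for the same genes, of 9 tumours of the second experiment was analysed. The authors deposited 1 table of log2 values per experiment. From the values these are log2 CPM, quantile-normalized within the table, which hides a shift shared by most genes. The submitters' processing notes name STAR 2.6.0b, bcl2fastq 2.20.0 and Picard, with hg19 and mm10 as builds. How reads were counted, with which annotation, and how mouse reads were treated is not given in the sources used. Rough library sizes were taken from the first 19 steps of the lowest values, which the normalization had already changed. Replicates were numbered in accession order, and each library is 1 mouse per the labels.

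Genes with at least 1 CPM in 3 libraries (4 in the second experiment) were fitted with limma 3.58.1 in R 4.3.3, with trend and robust settings, a threshold of 0.05 on Benjamini-Hochberg adjusted p-values, and no covariates. The code was tested on simulated data. MYC was also tested by exact permutation. Named genes were MYC, the 14 genes with the smallest p in each direction, up to 4 members of each of 45 lists at an unadjusted p under 0.05, and all tested members of the MYC network, complement and metallothionein lists. Genes outside this rule are marked where they are named. Some genes that the rule takes are not reported here. The members and lists were chosen with earlier results of these data known. Alternatives were other pseudocounts, filters, limma settings and sample weights, and leaving out each library.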

Additional observations from a re-analysis of the deposited data

Results flagged for a closer look

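In 6 of the 75 genes checked, 1 of the 4 Scr1 libraries stood far from the other 3: its gap to the nearest library was a large share of the whole range of the group. Chance alone gives such a gap in about 1 in 20 groups, so a few such genes among 75 would arise by chance. For MNT the share was 0.938, with Scr1 replicate 4 at 31.8 CPM and the others at 18.0 to 18.7 CPM. OAS2 had a share of 0.927, with Scr1 replicate 1 at 9.24 CPM below the others at 16.4 to 17.2 CPM. CHI3L1 had a share of 0.899, with Scr1 replicate 2 at 112 CPM above the others at 53.4 to 57.5 CPM. NAMPT had a share of 0.865, with the same library at 148 CPM above 68.5 to 76.0 CPM, and FABP4 one of 0.846, with the same library at 6.2 CPM above 3.87 to 4.16 CPM. For MSR1 the share was 0.899, with Scr1 replicate 3, the library with the most genes at its lowest value, at 1.25 CPM below 1.61 to 1.66 CPM. In FABP4 the high Scr1 library adds to the distance between groups, while in CHI3L1 and NAMPT it reduces it.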

How the results depend on the processing

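No difference of the 74 genes followed changed direction, in 427 values under other settings and 509 with 1 library left out. Most of these genes were chosen in the same data for a small p, so a kept direction was largely fixed in advance and is no support. Named genes with small differences, such as MAX and CD46, were not followed. Settings in which a gene fell below the filter are not counted. One setting brought a gene past the threshold: with at least 5 CPM in 3 or more libraries the count was 1 (AQP9), against 0. With single libraries left out the count was 0 to 2 (CD5L and APOE without Myc1 replicate 1, GCOM1 and MT1X without Myc1 replicate 2, RPL41P1 without Scr1 replicate 2), and the count at an unadjusted p under 0.05 was 169 to 955, against 485. Other settings gave 360 to 655 genes at that unadjusted p. The cause of these shifts was not tested. The direction of the MYC difference held under each alternative run, though its size did not. The number of leading genes with the same direction in the second experiment, 20, was 19 to 22 under alternatives chosen after seeing the data, which left out libraries of that experiment, while single values moved more. No paired analysis was possible because the labels carry no replicate numbers shared between groups. Scr1 replicate 3, the library with the most genes at its lowest value, limits genes near 1 CPM, and 3 against 4 mice limit every comparison.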
